A study of Homo sapiens with 32 samples.

Results

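The HLA class I and class II genes were followed through the H3K27me3 islands (regions called as enriched) of 16 libraries from MDA-MB-231 cells, a long-established human line of triple-negative breast cancer. The members were 9 named genes, 5 of class I (HLA-F, HLA-G, HLA-E, HLA-C and HLA-B) and 4 of class II (HLA-DRA, HLA-DQA1, HLA-DOA and HLA-DPA1), out of 19974 protein-coding genes. They were taken by name and not by a cut on any measured value, but with earlier results of these data known. For each gene the percent of its span plus 2.5 kb on each side that lay under islands was computed in every library, and the order of islands along the HLA region was recorded. The study asked what blocking EZH2, blocking p38 MAP kinase or blocking both did to the mark.

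There were 4 groups of 4 H3K27me3 libraries, all from the same cell line and all collected at 24 h. Control cells carried no inhibitor by their label, EPZ cells received an EZH2 inhibitor, P38i cells a p38 inhibitor, and Combo cells both. The labels give neither a dose nor a vehicle, and they do not say whether the 4 libraries of a group came from separate cultures. All p-values therefore measure the spread between these libraries, which may be technical. The mark was profiled by ChIPmentation, in which chromatin on the antibody beads is cut and tagged by a transposase. Matching IgG libraries belong to the series and were not analysed here. Libraries held 53290 to 85194 islands over 474 to 674 Mb. The island lists carry no score or read count, so depth is unknown and each value says how much of a gene was called, not how strong the mark was.

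H3K27me3 is the repressive histone mark laid down by Polycomb repressive complex 2, whose catalytic subunit is EZH2. Class I molecules are expressed by most nucleated cells and show peptides from inside the cell to cytotoxic T cells and natural killer cells, whereas class II molecules are made mainly by professional antigen presenting cells and show peptides to helper T cells. Interferon raises both, through the transactivator NLRC5 for class I and CIITA for class II, which dock on a shared promoter module bound by RFX and NF-Y. HLA genes are close copies of one another, and how reads matching several copies were treated is not given in the sources used here, so island bounds in the family carry that uncertainty.

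The promoter sequences are shown first because islands stopped short of the start of some members and reached that of others. RefSeq (GRCh38.p14) promoter windows of 300 bases, 250 before and 50 after an annotated start, were found for 7 of the 9 members, and the first 250 bases of 6 windows are given 5′ to 3′ on the gene's own strand. That of HLA-F is chr6:29723184-29723433 (plus strand), of HLA-G chr6:29826224-29826473 (plus, the farthest upstream of 3 annotated starts), of HLA-B chr6:31357180-31357429 (minus), of HLA-DQA1 chr6:32637156-32637405 (plus), of HLA-DOA chr6:33009592-33009841 (minus) and of HLA-DPA1 chr6:33073650-33073899 (minus). Capitals mark matches, on either strand, to CCAAT (the NF-Y box), AGCAACAG (core of the X1 box bound by RFX), TTTCACTTC (core of the interferon element) and GGGGATTC (core of the kappaB element). No match overlapped another motif in these windows.
HLA-F: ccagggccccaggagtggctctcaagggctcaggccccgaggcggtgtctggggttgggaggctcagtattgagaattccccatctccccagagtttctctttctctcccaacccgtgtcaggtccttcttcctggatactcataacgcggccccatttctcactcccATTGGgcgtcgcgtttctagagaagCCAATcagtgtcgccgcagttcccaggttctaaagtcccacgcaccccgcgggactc
HLA-G: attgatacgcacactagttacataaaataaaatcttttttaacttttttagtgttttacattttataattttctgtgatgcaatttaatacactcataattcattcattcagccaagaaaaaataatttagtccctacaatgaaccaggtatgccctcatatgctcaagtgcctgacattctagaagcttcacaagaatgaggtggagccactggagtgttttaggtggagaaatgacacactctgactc
HLA-B: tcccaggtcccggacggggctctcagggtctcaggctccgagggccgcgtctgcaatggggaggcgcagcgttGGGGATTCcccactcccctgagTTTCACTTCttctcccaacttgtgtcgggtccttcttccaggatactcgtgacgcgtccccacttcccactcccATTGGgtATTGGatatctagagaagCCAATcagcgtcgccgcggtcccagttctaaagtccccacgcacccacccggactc
HLA-DQA1: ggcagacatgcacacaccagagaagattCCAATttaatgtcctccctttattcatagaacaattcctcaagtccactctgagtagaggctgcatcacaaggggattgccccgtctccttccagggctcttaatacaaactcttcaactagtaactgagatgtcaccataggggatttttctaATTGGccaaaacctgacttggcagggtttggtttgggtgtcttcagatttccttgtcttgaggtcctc
HLA-DOA: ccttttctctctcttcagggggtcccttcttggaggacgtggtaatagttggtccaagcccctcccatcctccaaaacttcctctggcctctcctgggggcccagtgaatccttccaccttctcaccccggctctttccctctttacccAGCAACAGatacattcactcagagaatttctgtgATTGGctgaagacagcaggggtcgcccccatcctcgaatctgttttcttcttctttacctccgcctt
HLA-DPA1: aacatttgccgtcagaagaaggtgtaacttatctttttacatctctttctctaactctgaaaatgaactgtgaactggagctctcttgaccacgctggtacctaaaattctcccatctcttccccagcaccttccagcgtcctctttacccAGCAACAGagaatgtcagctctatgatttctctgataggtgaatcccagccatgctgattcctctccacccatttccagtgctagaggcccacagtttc
A window counted as covered where at least 50% of it lay under islands. The HLA-F and HLA-B windows were covered in 0 of 16 libraries, as was that of HLA-C. In HLA-G the printed window and that of the second start were covered in all 16 libraries, and that of the third start, the farthest downstream, in 5. The third HLA-G window was not printed. It holds the GGGGATTC and CCAAT matches of this gene, and the printed HLA-G window holds no match. The class II windows were covered in 4 libraries for HLA-DQA1, 9 for HLA-DOA and 8 for the printed one of HLA-DPA1. The other HLA-DPA1 window, farther upstream, was covered in 9. Over all 22132 windows of 15812 genes, 86.5% were covered in no library and 2.45% in all 16.

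Base composition was also read from the windows. Those of HLA-F, HLA-C and HLA-B had a GC content of 59.7, 62.7 and 62.0% and 17 to 22 CpG sites, and that of the third HLA-G start had 62.0% and 17. The HLA-DQA1 window had 46.3% and 1 CpG, HLA-DOA 52.3% and 6, and the printed HLA-DPA1 window 47.7% and 4, while its other window had 66.7% and 27. Both upstream HLA-G windows, covered in every library, had 35.7 and 40.3% with 1 and 2 CpG sites. Among all windows, the median GC content was 43.7% for those covered in all 16 libraries and 64.0% for those covered in none. TTTCACTTC was found in HLA-C and HLA-B only among the members (0.452% of all promoter windows hold it), and GGGGATTC in HLA-C, HLA-B and the third HLA-G window (0.899%). AGCAACAG was found in HLA-DOA and HLA-DPA1 (1.64%), and CCAAT in all members with a window except HLA-DPA1 (34.6%). In HLA-C, HLA-B and the third HLA-G window a CCAAT match began 56 bases before the start, and in HLA-F 57. AGCAACAG began 99 bases before the start of HLA-DPA1 and at a similar distance in HLA-DOA. These are matches of letters, not bound sites.

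Coverage of the whole gene window fell into a high and a low set, with members of both classes in each. Over the 16 libraries the mean was 97.3% for HLA-DRA, 88.9% for HLA-DPA1, 83.3% for HLA-DOA and 82.8% for HLA-G, and then 12.2% for HLA-B, 9.71% for HLA-DQA1, 9.33% for HLA-F, 8.16% for HLA-C and 0 for HLA-E. The step between HLA-G and HLA-B was the only one between neighbours in this order whose ranges did not overlap: HLA-G was higher in 16 of 16 libraries, by 70.7 points on average. HLA-DOA and HLA-G differed by 0.481 points and each was higher in 8 libraries. HLA-DPA1 exceeded HLA-DOA in 10 libraries and fell below it in 5, and the 5 genes at the low end overlapped from one to the next. Means of at least 50% were found for 1 of 5 class I and 3 of 4 class II members, against 10.6% of all protein-coding genes, of which 68.0% had no island in any library. Each library held 3 to 4 members covered by at least 50%.

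**Figure D1:**
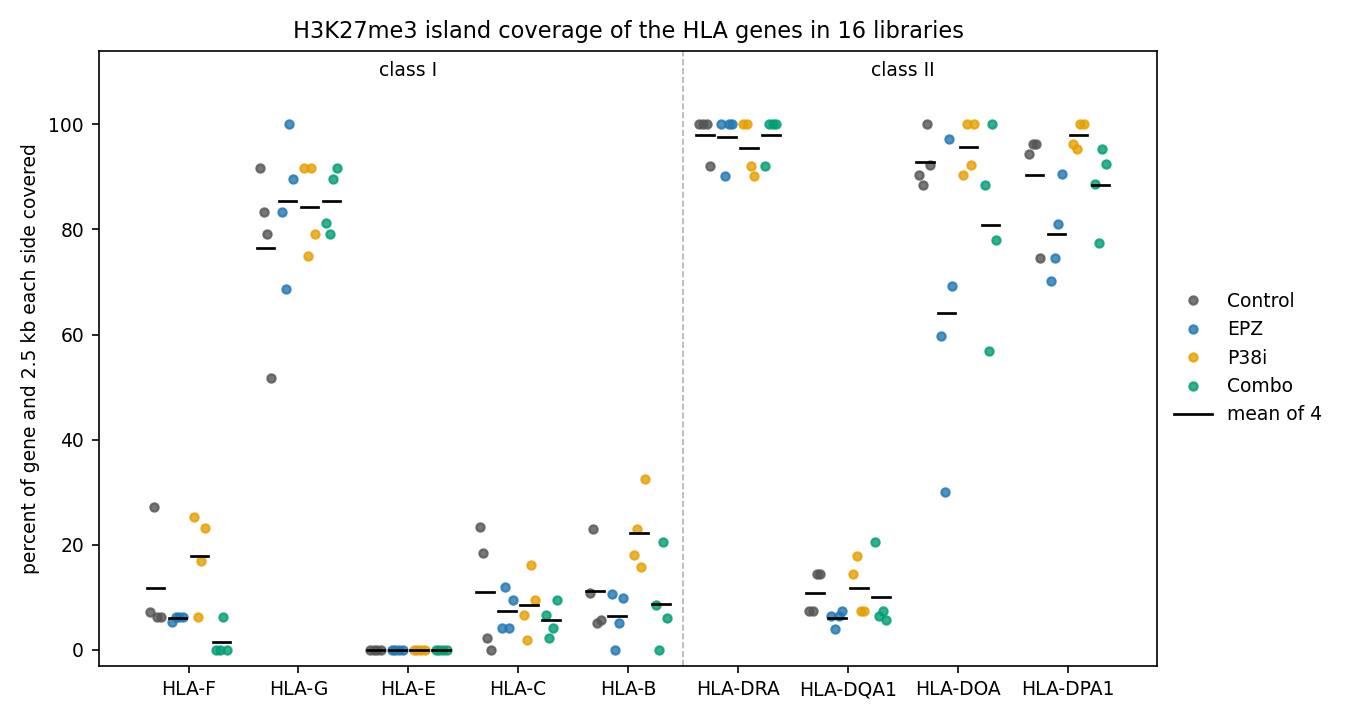
Percent of each HLA gene and 2.5 kb on each side covered by islands (vertical axis) for 9 genes (horizontal axis), 1 point per library, coloured by group, with a bar at the mean of 4 libraries. HLA-G, HLA-DRA, HLA-DOA and HLA-DPA1 lie mostly above 50%, the other 5 genes below 33%, and HLA-E is at 0 throughout.

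Among the class I genes, HLA-B (gene 3106, chromosome 6, 31353875 to 31357179), HLA-C (gene 3107, 31268749 to 31272092) and HLA-E (gene 3133, 30489509 to 30494194) had no island over the gene itself in any of the 16 libraries. HLA-B and HLA-C are classical class I genes, which encode the polymorphic peptide-presenting heavy chains, and HLA-E encodes the chain that shows leader peptides of other class I molecules to the NKG2A receptor. Coverage of the HLA-B window was 10.9, 22.9, 5.13 and 5.77% in Control replicates 1 to 4, 10.6, 0, 5.13 and 9.95% in EPZ, 18.1, 22.9, 15.7 and 32.6% in P38i, and 8.49, 0, 20.5 and 6.08% in Combo. P38i libraries were the highest as a group and 2 libraries with the EZH2 inhibitor were at 0. All of this lay in the flanks: islands covered 23.3% of the flank at lower coordinates and 17.2% of the other on average, and none reached within 0.874 kb of the gene. HLA-C windows ran from 0 to 23.3% (median 6.62%), again from flanks alone, with the nearest island 1.31 to 2.75 kb away. The nearest island to HLA-E lay 8.91 to 17.7 kb from it.

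HLA-F (gene 3134, 29723434 to 29738532), a non-classical class I gene, was mostly free of islands too. Its coverage was 7.3, 27.2, 6.3 and 6.3% in Control, 5.31, 6.3, 6.3 and 6.3% in EPZ, 25.2, 6.3, 16.9 and 23.2% in P38i, and 0, 0, 6.3 and 0% in Combo. Values from 5.31 to 7.3% came from 1 narrow island that ended 1.03 to 1.43 kb before the gene's left end. The 4 libraries above 16% (Control replicate 2 and P38i replicates 1, 3 and 4) had an island inside the gene, between 5.57 and 11.97 kb from its left end. No EPZ or Combo library had one there.

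HLA-G (gene 3135, 29826474 to 29831021), a non-classical class I gene best known from the placenta, was the covered exception in class I. Coverage was 91.6, 83.2, 79.1 and 51.8% in Control, 83.2, 68.6, 100 and 89.5% in EPZ, 91.6, 74.9, 91.6 and 79.1% in P38i, and 81.1, 79.1, 89.5 and 91.6% in Combo. The lowest library was Control replicate 4 and the highest EPZ replicate 3, and the groups overlapped. The upstream flank was covered in all 16 libraries, up to 0.727 kb into the gene. Coverage then broke: the stretch from 1.33 to 1.73 kb, which holds the third annotated start at 1.35 kb, was covered in 3 libraries, and from 5.53 kb on all 16 were covered again.

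Class II genes were covered over most of their length except HLA-DQA1. HLA-DRA (gene 3122, 32439887 to 32445046), the invariant alpha chain of HLA-DR, was at 100% in 11 libraries and at 90.2 to 92.1% in the other 5, of which 1 was Control, 1 EPZ, 2 P38i and 1 Combo. In those 5 libraries the uncovered windows lay between -0.486 and 0.714 kb from the gene's left end. From there to the end of the flank every library was covered. HLA-DRA lay above the limit of 95% for testing.

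HLA-DPA1 (gene 3113, 33064569 to 33080748), the alpha chain of HLA-DP, was covered at 94.3, 96.2, 96.2 and 74.5% in Control, 70.1, 74.5, 81.1 and 90.6% in EPZ, 96.2, 95.3, 100 and 100% in P38i, and 88.7, 77.3, 95.3 and 92.4% in Combo. P38i libraries were the highest and the closest together, and the lowest values were 3 of the EPZ libraries and 1 each of Control and Combo. HLA-DOA (gene 3111, 33004182 to 33009591) encodes the alpha chain of HLA-DO, which restrains peptide loading by HLA-DM. Its coverage was 90.4, 88.5, 100 and 92.3% in Control, 59.7, 30.0, 97.2 and 69.3% in EPZ, 90.4, 100, 92.3 and 100% in P38i, and 88.5, 56.9, 100 and 78.0% in Combo. Every library without the EZH2 inhibitor was at 88.5% or more, and 5 of the 8 with it were below 79%.

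HLA-DQA1 (gene 3117, 32637406 to 32655272), the alpha chain of HLA-DQ, was nearly free of islands. It stood at 7.41, 7.41, 14.4 and 14.4% in Control, 6.54, 3.91, 6.54 and 7.41% in EPZ, 14.4, 17.9, 7.41 and 7.41% in P38i, and 20.5, 6.54, 7.41 and 5.66% in Combo. An island ended just before the gene in most libraries: the flank at its start was covered by 71.8% on average, and from 5.395 kb into the gene to the end of the far flank no library had an island. The 4 libraries whose island ran over the start were Control replicates 3 and 4 and P38i replicates 1 and 2, none with the EZH2 inhibitor. Combo replicate 1, the highest library, had a separate island inside the gene.

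Coverage at annotated starts was set against the rest of each gene. For HLA-G, HLA-DOA and HLA-DPA1, the 200 bp window holding the start was covered in fewer libraries than the median window of the same gene at 4 of 6 annotated starts. The 4 were the third start of HLA-G (3 libraries against a median of 16), that of HLA-DOA (9 against 13) and both of HLA-DPA1 (8 and 9 against 15), whereas both upstream HLA-G starts were covered in all 16. Among 2288 starts of genes covered by at least 50%, 64.2% showed the same, so the members' share is near the background.

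**Figure D2:**
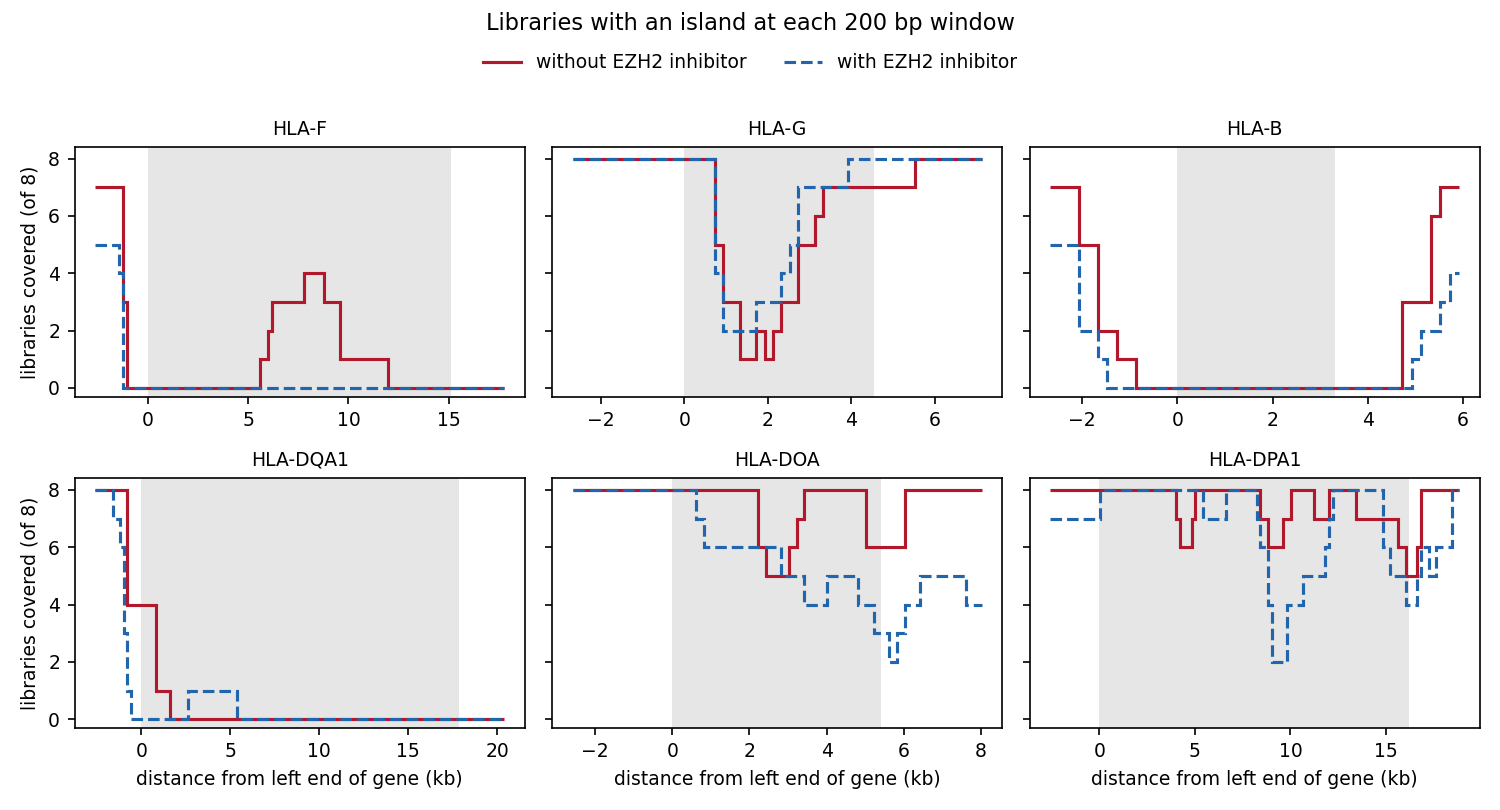
Number of libraries, of 8 without and 8 with the EZH2 inhibitor (vertical axis), that had an island at each 200 bp window, against distance from the gene's left end in kb (horizontal axis, gene shaded). In HLA-F only libraries without the inhibitor had an island inside the gene, HLA-G dips near 1.5 kb in both sets, and in HLA-DOA the dashed line falls to 2 libraries near the gene's right end, where the solid line stays at 6.

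The layout along chromosome 6 alternated between blocks covered in every library and stretches covered in none. The class I interval, from HLA-F to HLA-B with 2.5 kb on each side (29720934 to 31359679), was covered by 31.1% ± 2.05 (SD, n = 16), and the class II interval, from HLA-DRA to HLA-DPA1 (32437387 to 33083248), by 47.7% ± 3.45, where chromosome 6 as a whole stood at 19.1% ± 2.31. Islands of all 16 libraries shared 18.3% of the class I and 31.2% of the class II interval, while 60.2 and 39.0% had no island in any. The interval bounds come from the members, so these are descriptions without a test.

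In the class I interval a block covered in all 16 libraries (11.0 kb, 29816201 to 29827200) ended 0.727 kb into HLA-G, and HLA-E lay outside the blocks. The island end nearest HLA-E lay 9.31 kb before it in 9 libraries, and a stretch without islands ran from there over HLA-E toward HLA-C. The longest such stretch of the interval measured 463 to 496 kb in 15 libraries and 342 kb in EPZ replicate 3. The part free of islands in all 16 libraries, 342.4 kb from 30525801 to 30868200, holds 14 protein-coding genes, among them TUBB (a beta tubulin), FLOT1 (flotillin), ABCF1 and DHX16. Of the members, HLA-C and HLA-B lay in gaps of 6.4 and 5.6 kb that no library crossed, and an island between them ended at 31324200 in 15 libraries, 29.7 kb from HLA-B.

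**Figure D3:**
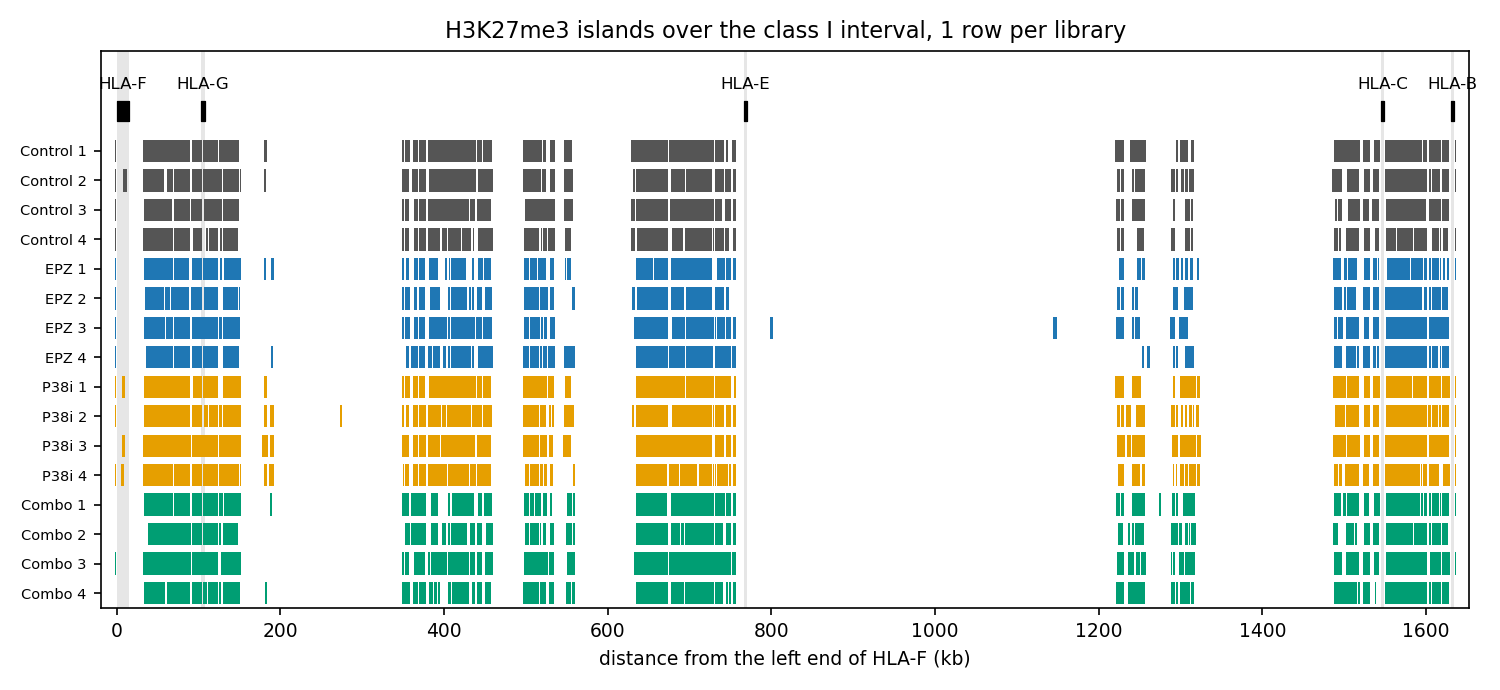
Islands of each library (rows, coloured by group) over the class I interval, against distance from the left end of HLA-F in kb, with the 5 members as black bars. A block that every library shares ends within HLA-G, HLA-E, HLA-C and HLA-B lie in gaps, and HLA-F holds islands in 4 libraries.

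In the class II interval most of HLA-DRA lay in a stretch covered in all 16 libraries (7.6 kb from 32440601). At HLA-DOA such a stretch (6.2 kb) ended at 33004800, 0.619 kb into the gene, and HLA-DPA1 held several short ones, the longest of 4.0 kb. HLA-DQA1 lay largely in a gap. The part of HLA-DQA1 and its right flank free of islands in all libraries measured 15.4 kb (32642801 to 32658200). The longest stretch free of islands in every library, 57.0 kb (32810801 to 32867800), includes PSMB8, PSMB9, TAP1 and TAP2, which supply peptides to class I molecules. The widest island of the class II interval measured 92.2 ± 32.1 kb without and 59.0 ± 13.5 kb with the EZH2 inhibitor (SD, n = 8 each), and the ranges, 38 to 130 and 37.8 to 73.2 kb, overlapped.

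**Figure D4:**
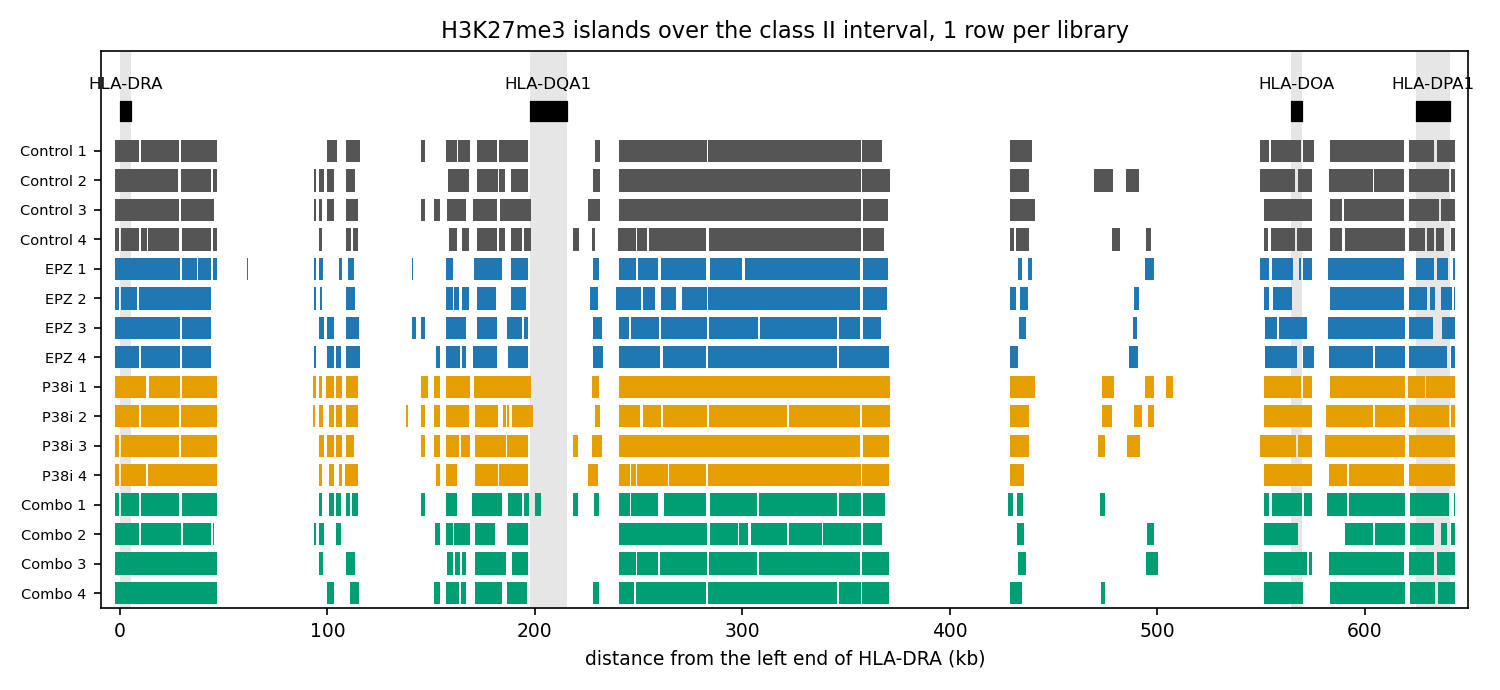
Islands of each library (rows, coloured by group) over the class II interval, against distance from the left end of HLA-DRA in kb, with the 4 members as black bars. Islands cover most of HLA-DRA, HLA-DOA and HLA-DPA1 in most libraries and little of HLA-DQA1, and the widest islands, over 100 kb, are in 4 libraries without the EZH2 inhibitor.

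EPZ against control asked what the EZH2 inhibitor alone did. The largest difference was at HLA-DOA, 64.0% ± 27.7 in EPZ against 92.8% ± 5.05 in Control (SD, n = 4, difference -28.8 points, SE 11.1, limma adjusted p = 0.157). HLA-DPA1 was 79.1% ± 8.90 against 90.3% ± 10.6 (adjusted p = 0.258 in limma) and HLA-G 85.3% ± 13.1 against 76.4% ± 17.2. By limma, 0 of the 7 tested members passed the threshold of 0.05 and 1 had an unadjusted p under 0.05, where 3.17% of 4105 tested genes passed and 20.9% had an unadjusted p under 0.05. Values were lower in EPZ for 6 of the 7, with a median difference of -4.81 points against -4.42 over all tested genes, of which 73.1% were lower. Without Control replicate 4, HLA-DPA1 passed at -16.5 points (limma adjusted p = 0.042). With that library left out, 417 of 4105 tested genes passed in this comparison, 410 of them lower.

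P38i against control used the same control libraries. HLA-B stood at 22.3% ± 7.46 in P38i and 11.2% ± 8.25 in Control (n = 4, difference 11.2 points, SE 5.09, limma adjusted p = 0.484), and HLA-F at 17.9% ± 8.51 against 11.8% ± 10.3. Of the 7 members, 0 passed by limma and 1 had an unadjusted p under 0.05, where 0.292% of tested genes passed and 10.1% were under 0.05 unadjusted. Values were higher for 6 of 7, with a median difference of 6.14 points against 2.90 over all tested genes, of which 28.4% were lower. HLA-C was the exception, at 8.51% ± 5.97 against 11.0% ± 11.6.

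Combo against control, again with the same control libraries, had its largest difference for the tested class I genes at HLA-F, 1.58% ± 3.15 in Combo and 11.8% ± 10.3 in Control (n = 4, difference -10.2 points, SE 4.68, limma adjusted p = 0.263). HLA-DOA was 80.8% ± 18.3 against 92.8% ± 5.05 (adjusted p = 0.605 in limma) and HLA-DPA1 88.4% ± 7.88 against 90.3% ± 10.6. By limma 0 of 7 members passed and 1 was under 0.05 unadjusted, where 1.68% of tested genes passed and 18.5% were under 0.05. Values were lower for 6 of 7, with a median difference of -2.41 points against -1.05 over all tested genes, of which 55.9% were lower.

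Between Combo and EPZ the p38 inhibitor was the difference. HLA-DOA was 16.8 points higher in Combo (95% interval -6.99 to 40.6) and HLA-DPA1 9.36 points higher (-2.28 to 21.0), and HLA-F differed by -4.48 points (-14.5 to 5.53). By limma 0 of 7 members passed and 0 had an unadjusted p under 0.05, where 0% of tested genes passed and 5.46% were under 0.05 unadjusted. Values were lower in Combo for 2 of 7 members, equal within 0.001 points for HLA-G, and lower for 26.3% of tested genes.

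Between Combo and P38i the EZH2 inhibitor was the difference. HLA-F was at 1.58% ± 3.15 in Combo and 17.9% ± 8.51 in P38i (n = 4, difference -16.3 points, SE 4.68, limma adjusted p = 0.0883). HLA-B was at 8.77% ± 8.61 against 22.3% ± 7.46 (difference -13.6 points, limma adjusted p = 0.159). By limma 0 of 7 passed and 2 were under 0.05 unadjusted, where 1.92% of tested genes passed and 20.2% were under 0.05 unadjusted. The median difference was -9.44 points against -5.14 over all tested genes, and 6 of 7 were lower where 76.4% of tested genes were. Without Control replicate 2, which is in neither group and enters through the shared spread, HLA-F passed (limma adjusted p = 0.0379). With that library left out, 54 of 4105 tested genes passed in this comparison.

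For the EZH2 inhibitor main effect, the 8 libraries of EPZ and Combo were set against the 8 of Control and P38i. HLA-F was the 1 member of 7 that passed, where 15.6% of tested genes passed in the same direction and 16.5% in either. It was covered by 3.82% ± 3.18 with and 14.8% ± 9.34 without the inhibitor (SD, n = 8 each, difference -11.0 points, SE 3.31, limma adjusted p = 0.0358), so that it reached the 5% mean needed for testing through the libraries without it. The call was lost with no filter (limma adjusted p = 0.0512), with no flank (0.0734), with a flank of 1 kb (0.0709), with covered length as a covariate (0.123), and when any of 9 of the 16 libraries was left out (0.0513 to 0.0736). Those 9 were EPZ replicates 1 to 3, P38i replicates 1, 3 and 4 and Combo replicates 1, 2 and 4.

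HLA-DOA differed by -21.8 points (SE 7.87, limma adjusted p = 0.0719), with 6 of 8 libraries below the median of those without the inhibitor. HLA-DPA1 differed by -10.3 points (SE 3.85, limma adjusted p = 0.0801), with 8 of 8 below that median, and HLA-B by -9.16 points (SE 3.60, limma adjusted p = 0.0952), with 7 of 8. Unadjusted p-values under 0.05 were found for 4 of 7 members and for 32.3% of tested genes.

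HLA-G went the other way in value, 4.97 points higher with the inhibitor (95% interval -7.14 to 17.1, limma adjusted p = 0.576). HLA-C (-3.21 points, but 0.34 with covered length as a covariate) and HLA-DQA1 (-3.28 points) did not pass. The members' median difference of -9.16 points stands beside -4.84 over all tested genes, and 6 of 7 were lower where 78% of tested genes were.

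The promoter windows were also counted by inhibitor, as a description. That of HLA-DQA1 was covered in 4 of 8 libraries without and 0 of 8 with the EZH2 inhibitor, that of HLA-DOA in 6 and 3, the printed one of HLA-DPA1 in 6 and 2, its other one in 5 and 4, and that of the third HLA-G start in 3 and 2. The remaining windows of the members were covered in all libraries or in none. Among the 2451 promoter windows covered in 1 to 15 libraries, 52.3% were covered in more libraries without the inhibitor than with it.

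Total covered length moved with the inhibitor: chromosome 6 was covered by 17.7% ± 1.60 with it and 20.4% ± 2.23 without it (n = 8 each). The class I interval stood at 29.8% ± 1.67 and 32.3% ± 1.68, and the class II interval at 45.2% ± 2.06 and 50.2% ± 2.70. With the covered length of each library as a covariate, HLA-F differed by -10.1 points and HLA-G passed as higher (14.6 points, limma adjusted p = 0.0334). Over all tested genes 36 were higher and 642 lower; with that covariate the split was 127 and 260, and with lists cut to equal length, where HLA-F was not tested, 72 and 96. With 1 library left out, HLA-DPA1 passed without Control replicate 4 or EPZ replicate 4, HLA-DOA without EPZ replicate 3 or Combo replicate 3, and HLA-B without Combo replicate 3. Calls over all tested genes then ran from 420 to 926.

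**Figure D5:**
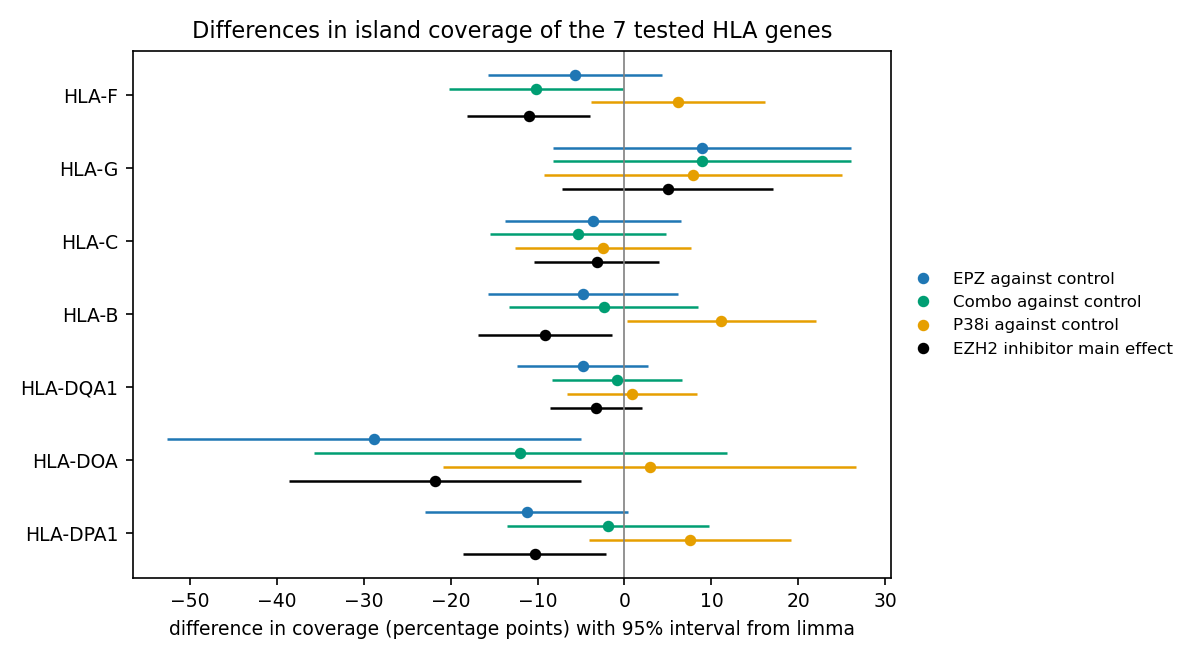
Differences in coverage in percentage points (horizontal axis) for the 7 tested HLA genes (vertical axis), with points for the limma estimate and lines for its 95% interval, not adjusted for the number of genes. The interval of the EZH2 inhibitor main effect lies below 0 for HLA-F, HLA-B, HLA-DOA and HLA-DPA1, and only HLA-F passed after adjustment over all genes.

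For the p38 inhibitor main effect, HLA-DPA1 was 8.46 points higher in the 8 libraries with the inhibitor (SE 3.85, limma adjusted p = 0.366) and HLA-B 6.76 points higher (SE 3.60, limma adjusted p = 0.422). By limma 0 of 7 passed and 1 was under 0.05 unadjusted, where 0.122% of tested genes passed and 13.3% were under 0.05 unadjusted. Values were lower for 1 of 7 members and 23% of tested genes. The interaction asked whether the EZH2 inhibitor acted differently when p38 was blocked. It was largest in value at HLA-DOA (13.9 points, 95% interval -19.7 to 47.6) and HLA-F (-10.6, -24.8 to 3.54). By limma 0 of 7 passed and 0 were under 0.05 unadjusted, where 0.0487% of tested genes passed and 3.43% were under 0.05 unadjusted. The interaction was below 0 for 3 of 7 members and 50.3% of tested genes.

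Across libraries, coverage of some members followed the total covered length. For HLA-DPA1 Pearson's r was 0.81 (permutation p = 0.0004, adjusted over 7 members p = 0.0028) and Spearman's rho 0.74 (permutation p = 0.00172, adjusted p = 0.012) over 16 libraries. It was 0.69 without the 2 libraries farthest from the median length and 0.72 for deviations from group means. For HLA-G r was 0.60 (permutation p = 0.0125, adjusted p = 0.0437) and rho 0.56 (permutation p = 0.0252, adjusted p = 0.0588), with 0.55 without those 2 libraries and 0.83 for deviations from group means. The other 5 members had r from 0.053 to 0.53 with adjusted permutation p-values above 0.05.

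Between members, HLA-F and HLA-B had the highest correlation of coverage over the 16 libraries (r = 0.71), then HLA-B and HLA-DPA1 (0.67) and HLA-DOA and HLA-DPA1 (0.67), and HLA-C and HLA-DQA1 the lowest (-0.41). These points share libraries and their covered length, so the values are descriptions. The member of each class with the widest spread among those tested was compared with all tested genes outside the intervals. HLA-DOA was most like TMEM100 (r = 0.95), PCDHB16 (0.88) and LOC107984732 (0.85). HLA-G was most like DNAH11 (0.88), GCSAML (0.86) and FBXL7 (0.86). These values are the highest picked from all those genes, over libraries that share groups and covered length. They are descriptions too.

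In bins of 10 kb, differences between and beside the genes were located. The class I interval had 164 bins, of which 83 had no island in any library and 55 were tested, and the class II interval 66, of which 12 had none and 32 were tested. By limma, EPZ, P38i and Combo against control each had 0 bins of either interval past the threshold, where 0.00329, 0 and 0.011% of 91051 bins passed. Unadjusted p-values under 0.05 were found for 5, 4 and 7 class I bins and 4, 1 and 1 class II bins, and for 12.6, 5.35 and 11.8% of all bins. With the EZH2 inhibitor main effect 1 bin of each interval passed, both lower, where 1.14% of bins passed and 1.05% as lower. The first lay in the class II interval from 32870001 to 32880000, 124 kb from HLA-DOA and over no protein-coding gene. Its coverage was 82.5% ± 15.6 without and 37.5% ± 9.18 with the inhibitor (SD, n = 8 each, difference -45.0 points, SE 9.30, limma adjusted p = 0.0233), with ranges of 58 to 100% and 28 to 56%. The bin was picked by these same values, so its ranges are a description and no further support. The other lay from 30120001 to 30130000 in the class I interval, 289 kb from HLA-G. It went from 93.0% ± 9.01 to 48.0% ± 29.5 (n = 8 each, difference -45.0 points, SE 11.0, limma adjusted p = 0.0463), with ranges of 76 to 100% and 14 to 92% that overlapped. Differences were below 0 in 44 of 55 tested class I bins and 28 of 32 class II bins, 80.0 and 87.5%, against 67.6% over the genome, and unadjusted p-values under 0.05 were found for 10 class I and 6 class II bins and 18.1% of all bins. Single islands measured up to 67.4 kb in the class I and 130 kb in the class II interval. Neighbouring bins can share an island and are not independent, so these shares are descriptions. With covered length as a covariate 0 bins of the intervals passed, where 26 of 91051 bins passed over the genome.

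Beside the second of these bins stands a group of tripartite motif genes, which encode RING-type ubiquitin ligases. TRIM15 (30163546 to 30172693) was covered by 80.8% ± 6.07 without and 57.6% ± 12.1 with the EZH2 inhibitor (SD, n = 8 each) and fell by 23.2 points (SE 4.30, limma adjusted p = 0.00414). TRIM31 (30102897 to 30113090) went from 81.6% ± 5.63 to 65.8% ± 8.42 (SE of the difference 3.48, limma adjusted p = 0.00881). TRIM15 also passed as lower in Combo against P38i, where 1.92% of all tested genes passed. TRIM15 and TRIM31 both passed as lower in Combo against control, where 1.68% of all tested genes passed. Of the 42 other genes whose windows lie in the class I interval, 31 had no island in any library, 8 were tested and these 2 passed in the main effect, where 16.5% of all tested genes did. Of the other genes of this family there, TRIM10 differed by -19.5 points (limma adjusted p = 0.0963), and TRIM40 and TRIM26 had means outside the limits for testing. TRIM39 and TRIM39-RPP21 had no island in any library. TRIM40 (98.7%), LOC105375012 (89.9%) and TRIM10 (74.0%) had the highest means.

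The mark was also read at genes that work with HLA molecules. The 15 genes of class I peptide supply, among them B2M (the class I light chain) and the TAP1 and TAP2 peptide transporter, had no island in any library. Of 14 genes of the class II pathway, 12 had none, including CIITA, RFX5 and CD74 (the invariant chain), and CTSL and MARCHF1 had means of 0.344 and 0.150%. Among 9 interferon and class I regulators, IRF8, a transcription factor of myeloid and B cells, was at 53.3% and the other 8, NLRC5 among them, at 0. Of these 3 lists only IRF8 was within the limits for testing, and it passed in no contrast.

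Some class I-like genes and receptors of HLA molecules carried islands. Of 18 class I-like genes, 10 had no island and 6 were at 50% or more, led by CD1A (95.2%), CD1D (90.6%) and CD1C (75.3%), which present lipids to T cells. ULBP1, a stress ligand of NKG2D, was at 17.3% ± 17.7 without and at 0 in all 8 libraries with the EZH2 inhibitor. It passed in no contrast (main effect difference -17.3 points, SE 5.65, limma adjusted p = 0.0502). This gene was singled out after its values were seen. It reached the mean needed for testing (8.64% over all libraries) only through those without the inhibitor. Of 17 receptor genes, 7 had none and 10 were tested, with KIR2DL4 (91.6%), KIR3DL1 (78.9%) and KIR3DL2 (72.5%), killer cell receptors of class I molecules, the highest. CD3E, a signalling chain of the T cell receptor, was the 1 of these 10 that passed, where 16.5% of all tested genes passed in the EZH2 inhibitor main effect and 3.17% in EPZ against control. It went from 61.9% ± 11.2 to 29.2% ± 16.4 with the EZH2 inhibitor (n = 8 each, limma adjusted p = 0.00531) and was also lower in EPZ against control. Of 12 other HLA genes by symbol, 3 had no island, 3 had means of at least 50%, 4 were tested and 0 passed by limma in any contrast. HLA-DRB3 (3824508 to 3837642) and HLA-DRB4 (3840427 to 3855395) were placed on chromosome 6 far from both HLA intervals. Their values there, 0 and 3.27%, may therefore not belong to these genes, and HLA-DRB3 is among those counted without an island.

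Markers of cell identity were read for the mark only. The 7 mesenchymal markers of this line, such as VIM and CD44, had no island in any library. Of 8 luminal breast markers, PGR (95.4%), FOXA1 (56.6%) and ESR1 (10.2%) carried islands and 5 did not. Of 8 leukocyte markers, MS4A1 (74.8%), CD3E (45.5%) and ITGAX (11.6%) carried islands and 5, PTPRC among them, did not.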

How the data were processed

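Each H3K27me3 library had 1 deposited list of islands, as the authors deposited it: a start and an end per island on hg38, in steps of 200 bp, and no other unit or score. Per the submitters' processing notes, SICER, Bowtie2 2.3.4.1, bedtools 2.28.0, SAMtools 1.2, Picard, cutadapt, Trim Galore and FastQC were used. Step order, caller version and settings: not given in the sources used here. Identical libraries numbered 0, and 0 islands lay on alternate contigs.

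The percent of each gene plus 2.5 kb on each side under islands was computed for 19974 protein-coding genes placed by RefSeq (GRCh38.p14), and checked with bedtools 2.31.1 (largest difference 0 points). Genes with a mean of 5 to 95% (4105) were fitted over all 16 libraries by limma 3.58.1 in R 4.3.3 (robust fit with a trend), and p-values were adjusted over all of them by Benjamini-Hochberg at 0.05. Bins of 10 kb (91051 tested) were fitted the same way. Python 3.11.15, numpy 2.4.6, pandas 2.3.3 and scipy 1.17.1 were used for the rest. On simulated data for the EZH2 inhibitor main effect, the gene fit recovered 66% of 20-point and 94% of 40-point drops and called 0.23% of unchanged genes, and the bin fit recovered 39% of 40-point and 81% of 60-point drops. Drops were placed only in features with high control coverage, with independent noise and no shift shared by a library. These rates therefore do not carry over to members with low coverage, or to libraries that differ in total covered length.

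All 9 members were named by symbol. Of the other lists, genes past the threshold and the 3 with the highest means were named; ULBP1, genes in stretches without islands and examples at 0 were named outside this rule, after their values were seen. The members and lists were chosen with earlier results of these data known. The labels do not say whether replicate numbers pair the libraries, and the main fit used no block. The alternatives were other flanks, filters, scales, bins and island widths, lists of equal length, covered length as a covariate, the block, only the compared groups, and each library left out in turn.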

Additional observations from a re-analysis of the deposited data

Results flagged for a closer look

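Of 40 groups of 4 libraries checked, 9 had 1 library far from the other 3. The rule flags about 1 in 20 groups of continuous values by chance. That rate does not hold here, because coverage moves in steps of 200 bp between 0 and 100% and values are often tied. The flags are therefore not read as an excess of unusual libraries. For HLA-F, Control replicate 2 stood at 27.2% with the others at 6.3 to 7.3%, EPZ replicate 1 at 5.3087% with the others at 6.3%, and Combo replicate 3 at 6.3038% with the others at 0. For HLA-DRA, Control replicate 4 and Combo replicate 1 stood at 92.126% and EPZ replicate 2 at 90.157%, each with the other 3 libraries of its group at 100%. HLA-DQA1 in Combo replicate 1 was covered by 20.532%, with the others at 5.66 to 7.41%. HLA-DPA1 in Control replicate 4 was covered by 74.504%, with the others at 94.3 to 96.2%. The class II interval in Combo replicate 2 was covered by 42.124%, with the others at 46.4 to 46.8%.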

How the results depend on the processing

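Of 483 differences of single members under other settings, 474 kept their side of the threshold, and of 896 with 1 library left out, 880 did. Of those, 24 and 38 that did not pass either way changed sign. For the EZH2 inhibitor main effect, where 1 HLA gene passed, 0 passed with no flank, a flank of 1 kb, lists of equal length or no filter, 2 with a flank of 5 kb (HLA-F and HLA-DOA, -23.8 points, limma adjusted p = 0.0241) or on the arcsine square root scale (HLA-F and HLA-DPA1), and 1 with islands of at least 2 kb. With covered length as a covariate 1 passed, HLA-G in place of HLA-F. Over its alternatives the HLA-F adjusted p ran from 0.0169 to 0.123 in limma. With 1 library left out the count ran from 0 to 3: besides the losses of HLA-F, HLA-DPA1 passed without Control replicate 4 or EPZ replicate 4, HLA-DOA without EPZ replicate 3 or Combo replicate 3, and HLA-B without Combo replicate 3. Counts for EPZ against control and for Combo against P38i ran from 0 to 1. The 2 bins of the HLA intervals became 0 with bins of 5 kb, lists of equal length or the covariate, 4 with bins of 20 kb and 1 without the filter, and 0 to 3 with 1 library left out, with 0 without Control replicate 3, P38i replicate 1 or P38i replicate 3. Calls over the genome moved too. They were 196 of 167709 with bins of 5 kb, 0 of 78851 with lists of equal length and 26 of 91051 with the covariate. With bins of 20 kb they were 2001 of 49931, without the filter 752 of 123626, and with 1 library left out 253 to 2096. The cause of these changes was not tested, except that HLA-F could not be tested in the lists of equal length.

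The number of members counted as covered in a library, 3.9375 at 50%, was 4.1875 at 25% and 3.375 at 75%. With the replicate number as a block, 1 HLA gene passed in the EZH2 inhibitor main effect, HLA-DOA (-21.8 points, limma adjusted p = 0.0445) in place of HLA-F (0.0679), 0 passed in the other comparisons, and 2 bins passed. Over the genome 587 of 4105 tested genes and 624 of 91051 bins passed in that main effect with the block. Libraries of the same number correlated by -0.151 to 0.178 in their deviations from group means, and those of different numbers by -0.204 to 0.163. Of the 16 libraries, 3 correlated best with their own number. These values do not decide whether the numbers mark pairs. Over all genes the calls of the EZH2 inhibitor main effect ran from 168 to 762 under other settings and from 420 to 926 with 1 library left out, those of EPZ against control from 14 to 189 and 11 to 417, and those of Combo against control from 9 to 357 and 0 to 250. Read depth is unknown, so a gap in an island list may be a region that was not called at the depth of that library.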
